A study of Mus musculus with 2 samples.

Results

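Mitotic carcinoma cells were taken from 2 droplet single-cell RNA libraries of tumours that grew under the skin of C57BL/6 mice injected with CMT167R cells. CMT167 is a mouse lung carcinoma line, and the labels call CMT167R resistant to anti-PD1 and of wild-type genotype. The control library came from tumours of mice given the control solvent. The PKCi library came from tumours of mice given 3 mg/kg of a compound labelled PKCi, daily and i.p. All tumours in both groups came from that 1 line and were collected once control tumours measured 400 mm3. The labels give neither the number of mice behind a library nor their age, and they do not name the compound. With 1 library per treatment, every difference between treatments is a difference between 2 libraries, and no test of treatment was possible.

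Carcinoma barcodes were those with at least 500 genes, at most 20% mitochondrial UMIs (unique molecular identifiers, 1 per captured RNA molecule), at least 10000 UMIs, 0 UMIs of the leukocyte gene Ptprc, and at least 3 UMIs each of Krt8, an epithelial keratin, and Rhox5, a homeobox gene. Of 14145 barcodes in the files, 8735 met this gate, 4260 in the control and 4475 in the PKCi library. In each of them the UMIs of Ccnb1, Cdc20, Plk1, Cenpf, Aurka and Top2a were summed and divided by the barcode's total. The 15% with the highest share over both libraries together were the members, 1310 barcodes, of which 664 were in the control and 646 in the PKCi library. The other 3596 and 3829 gate barcodes served as the comparison. The lowest member had 1482.79 UMIs of the 6 genes per 1000000 UMIs and the highest barcode outside had 1482.53, so the cut fell within a continuous range. In all, 566 gate barcodes lay within 10% of it.

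When a cell enters mitosis, cyclin B with the kinase Cdk1 drives chromosome condensation, breakdown of the nuclear envelope and assembly of the spindle. Kinetochores attach chromosomes to microtubules, a checkpoint holds anaphase back until all are attached, and the anaphase-promoting complex with Cdc20 then marks securin and cyclin B for destruction. Many of these genes are transcribed from G2 onwards under the MuvB, B-MYB and FOXM1 factors, and their mRNA is low in G1. Top2a, by contrast, is made from S phase on, so a sum that contains it reaches back before mitosis. RNA levels do not separate G2 from mitosis itself.

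**Figure D1:**
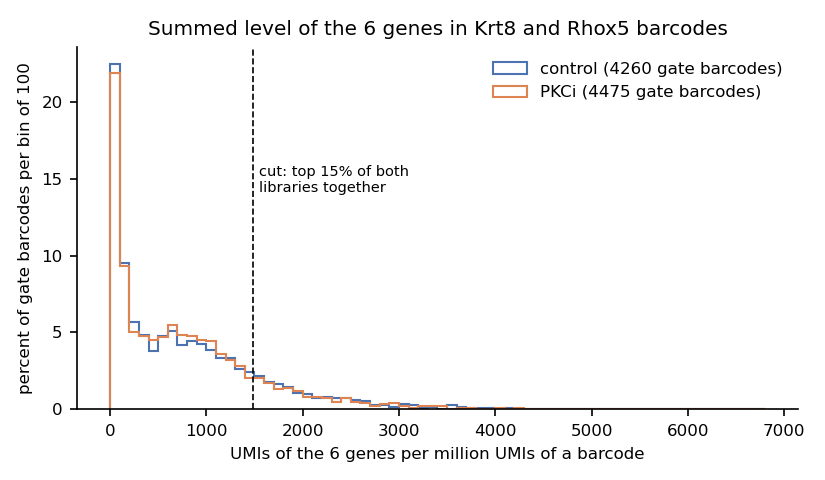
Distribution of the summed UMIs of the 6 genes per 1000000 UMIs of a barcode (x axis) as a percent of gate barcodes per bin of 100 (y axis), with 1 outline per library. The dashed line is the cut that leaves 15% of both libraries together above it, and the 2 outlines lie close to each other with no gap at the cut.

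The 2 libraries held 222641855 (control) and 229219749 (PKCi) UMIs. Members held more UMIs than the other gate barcodes, with medians of 52050 against 37700.5 in the control and 48157 against 35518 in the PKCi library, 1.38 and 1.36 times as many. When every gate barcode was thinned to 10000 UMIs and ranked again, 1069 of the 1310 members (81.6%) were chosen again. Scrublet, a doublet caller, marked 3 members in each library (0.452% and 0.464%) and 24 (0.667%) and 16 (0.418%) of the other gate barcodes, and none were removed from the main values. No cell barcode was shared by members of the 2 libraries, while 20 were shared among all barcodes. The 41 markers of leukocyte, endothelial, fibroblast and red cell classes summed to 229 CPM (UMIs per 1000000 UMIs of the summed barcodes) in control members and 188 CPM in PKCi members, against 277 and 205 CPM in the other gate barcodes and 21369 and 12860 CPM in barcodes with at least 3 Ptprc UMIs. Col3a1 alone gave 113 CPM of that sum in control and 85.1 CPM in PKCi members, and 128 and 104 CPM in the other gate barcodes. In the barcodes with at least 3 Ptprc UMIs it stood at 43.2 and 38.1 CPM. The source of the Col3a1 RNA was not tested. In control members Ptprc, Ms4a1, Xcr1 and Hbb-bt were at 0, and in PKCi members Ptprc and Cd8a were. Barcodes with over 2 UMIs of Lyz2, C1qa, S100a8, Cd3e, Nkg7 or Pecam1 made up 19.1% and 23.2% of members and 11.6% and 13.6% of the other gate barcodes. Counts of genes without these barcodes are given with each comparison.

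Free RNA was measured in barcodes of neutrophils, which do not divide (at least 10 UMIs each of S100a8 and S100a9 and under 3 of Krt8). After thinning to 1000 UMIs, Top2a had a UMI in 63.7% of control and 60.4% of PKCi members, in 21.7% and 21.3% of the other gate barcodes, and in 2% and 5.5% of 250 and 109 neutrophil barcodes. Median depths before thinning were 52050 and 48157 UMIs in members and 3520 and 2210 UMIs in neutrophil barcodes, where 10% and 11% had a Top2a UMI without thinning, against 99.2% and 99.8% of members. Ccnb1 had a UMI in 16.6% and 15.9% of thinned members and in 0 thinned neutrophil barcodes of either library. Both genes are part of the rule, so these shares describe the background beside the members and support nothing.

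The promoters of the genes that define the members are shown because the same 2 short motifs recur in them and in the genes that go with them. CCAAT is the letter motif bound by the factor NF-Y, and TTTGAA or TTCGAA is the core of the cell cycle genes homology region bound by MuvB complexes. Both were searched on both strands from 250 bases before to 50 after each start site, where neighbouring matches may share a base. Each run is RefSeq sequence of build GRCm38.p6 from 140 bases before to 20 after the start, read 5′ to 3′ along the gene's own strand, with motif letters in capitals (ATTGG and TTCAAA are the motifs on the opposite strand). The positions are chr13:100786467-100786626 (minus strand) for Ccnb1, chr4:118437324-118437483 (minus) for Cdc20, chr7:122159295-122159454 (plus) for Plk1, chr1:189688067-189688226 (minus) for Cenpf, chr2:172370551-172370710 (minus) for Aurka and chr11:99024170-99024329 (minus) for Top2a. Ccnb2, a second B-type cyclin, is at chr9:70421535-70421694 (minus), and Ube2c, the E2 enzyme of the anaphase-promoting complex, at chr2:164769789-164769948 (plus).
Ccnb1: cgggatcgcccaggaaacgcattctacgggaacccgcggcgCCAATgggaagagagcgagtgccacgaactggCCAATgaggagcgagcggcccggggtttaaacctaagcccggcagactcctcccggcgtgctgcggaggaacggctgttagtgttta
Cdc20: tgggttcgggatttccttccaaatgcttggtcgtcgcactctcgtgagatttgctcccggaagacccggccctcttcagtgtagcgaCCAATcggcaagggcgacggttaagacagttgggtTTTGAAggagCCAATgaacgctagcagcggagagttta
Plk1: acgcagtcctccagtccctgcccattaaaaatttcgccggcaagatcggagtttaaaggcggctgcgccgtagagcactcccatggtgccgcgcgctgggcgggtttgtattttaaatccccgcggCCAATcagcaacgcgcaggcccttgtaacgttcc
Cenpf: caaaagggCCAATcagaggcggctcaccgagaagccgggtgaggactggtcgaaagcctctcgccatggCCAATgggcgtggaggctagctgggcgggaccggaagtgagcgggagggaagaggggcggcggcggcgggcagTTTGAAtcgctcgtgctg
Aurka: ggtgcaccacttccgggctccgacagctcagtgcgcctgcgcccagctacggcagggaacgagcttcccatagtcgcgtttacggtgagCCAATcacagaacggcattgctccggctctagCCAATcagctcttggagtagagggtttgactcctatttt
Top2a: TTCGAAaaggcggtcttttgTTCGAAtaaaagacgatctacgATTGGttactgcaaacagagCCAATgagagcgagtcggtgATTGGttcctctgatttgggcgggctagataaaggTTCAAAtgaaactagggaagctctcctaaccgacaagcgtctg
Ccnb2: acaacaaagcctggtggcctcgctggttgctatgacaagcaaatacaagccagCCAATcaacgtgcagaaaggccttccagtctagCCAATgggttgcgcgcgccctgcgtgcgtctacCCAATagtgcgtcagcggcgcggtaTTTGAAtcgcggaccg
Ube2c: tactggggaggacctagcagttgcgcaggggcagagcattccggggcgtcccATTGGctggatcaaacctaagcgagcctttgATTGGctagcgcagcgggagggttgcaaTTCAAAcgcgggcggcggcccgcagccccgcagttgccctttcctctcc
All 6 genes of the rule held CCAAT in the window of 300 bases. The 2 copies in Ccnb1 began 99 and 67 bases before the start, the 2 in Cenpf 132 and 71 bases before it, and the 3 in Ccnb2 87, 54 and 21 bases before it. TTTGAA or TTCGAA was in 5 of the 6, with Ccnb1 the exception. It lay 18 bases before the start of Cdc20 and at base 3 of the Cenpf transcript, while in Plk1 and Aurka it lay at bases 31 and 33, past the end of the printed run. Over all genes, 37.4% of 32851 RefSeq promoters held CCAAT, 19.2% held TTTGAA or TTCGAA and 7.52% held both. Among the 110 genes called higher in members as described further on, 90 were matched by symbol or older symbol and had 100 promoters, of which 72% held CCAAT, 66% held TTTGAA or TTCGAA and 54% held both. For the genes measured at the same level the shares were 37.4%, 14.1% and 6.42% of 3771 promoters. For the list of DNA replication genes, of which 0 were called higher in members, they were 57.1%, 16.7% and 11.9% of 42 promoters. A raised share of CCAAT was thus not particular to the genes higher in members. A match is a description of letters and says nothing of binding in these cells.

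Values of the 6 genes chose the members, so they are given as a description. Ccnb1, cyclin B1, stood at 190 CPM in control and 197 CPM in PKCi members, against 39.9 and 43.4 CPM in the other gate barcodes. Plk1, a kinase of mitotic entry and spindle poles, stood at 93.3 and 95.7 CPM in members against 18.4 and 18.4 CPM. Aurka, a centrosomal kinase that activates Plk1, stood at 98.0 and 87.7 CPM against 21.1 and 18.0 CPM. Levels of these 3 regulators were thus between 4.55 and 5.19 times as high in members in both libraries. Cenpf, a large kinetochore protein, stood at 483 and 526 CPM in members against 97.5 and 110 CPM. Cdc20, the activator of the anaphase-promoting complex, stood at 221 and 227 CPM against 67.5 and 67.4 CPM. Top2a, the topoisomerase that untangles sister chromatids, stood at 1071 and 984 CPM against 347 and 338 CPM. Cdc20 and Top2a were thus nearer to the other gate barcodes, with ratios from 2.92 to 3.37, than the other 4 genes of the rule.

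Single members differed in how these genes added up. The sum had a median of 107 UMIs in control and 99.5 UMIs in PKCi members. Top2a gave 49.7% of the summed UMIs in control and 46.5% in PKCi members, Cenpf 22.4% and 24.8%, Cdc20 10.2% and 10.7%, Ccnb1 8.81% and 9.31%, Aurka 4.55% and 4.14%, and Plk1 4.32% and 4.52%. These shares follow UMIs and not transcripts per length. Plk1 had 0 UMIs in 61 control and 49 PKCi members, whereas Top2a had 0 in 5 and 1. Across the thinned gate barcodes the counts of Cdc20 and Top2a went together, with a Spearman rho of 0.24 in 4260 control and 0.23 in 4475 PKCi barcodes. Within members the rho was -0.34 in both libraries (664 and 646 barcodes), while Cdc20 and Cenpf kept 0.33 and 0.37. Barcodes of a library share its depth and the cut on the sum, which by itself links genes within the members, so these are descriptions.

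Levels in members were compared with those in the other gate barcodes for 3680 genes with at least 50 UMIs and 50 CPM. A gene was called when it was at least 1.5 times apart in the same direction in both libraries. Of these genes, 110 were higher (2.99%) and 7 lower (0.19%) in members. Because the same cells were chosen on 6 of these genes, the counts describe the set. A gene needed 50 CPM in only 1 of the 4 sums, so it could be measured only through the sum where it was high. Of the 20 genes ranked highest, all but Cenpf, Ube2c, Cenpe, Prc1 and Kif23 were under 50 CPM in the other gate barcodes of both libraries. Csf2 reached 50 CPM only in the other PKCi gate barcodes. The counts of higher and lower genes thus partly follow from this minimum. The imbalance also holds only at this minimum: with 50 UMIs alone, 424 genes were higher and 424 lower (2.72% each of 15571). At 2-fold, 73 genes were higher in both libraries and 1 was lower. With barcodes carrying markers of other cell types left out, 116 genes were higher and 6 lower. Of the 110 genes, 74 were in the lists of mitosis genes, 5 in the histone lists, 1 (Cdkn2d) among the cell cycle inhibitors, and 30 in none of the 30 lists. The 20 with the largest ratio included 4 genes of the rule and 19 in the mitosis lists.

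**Figure D2:**
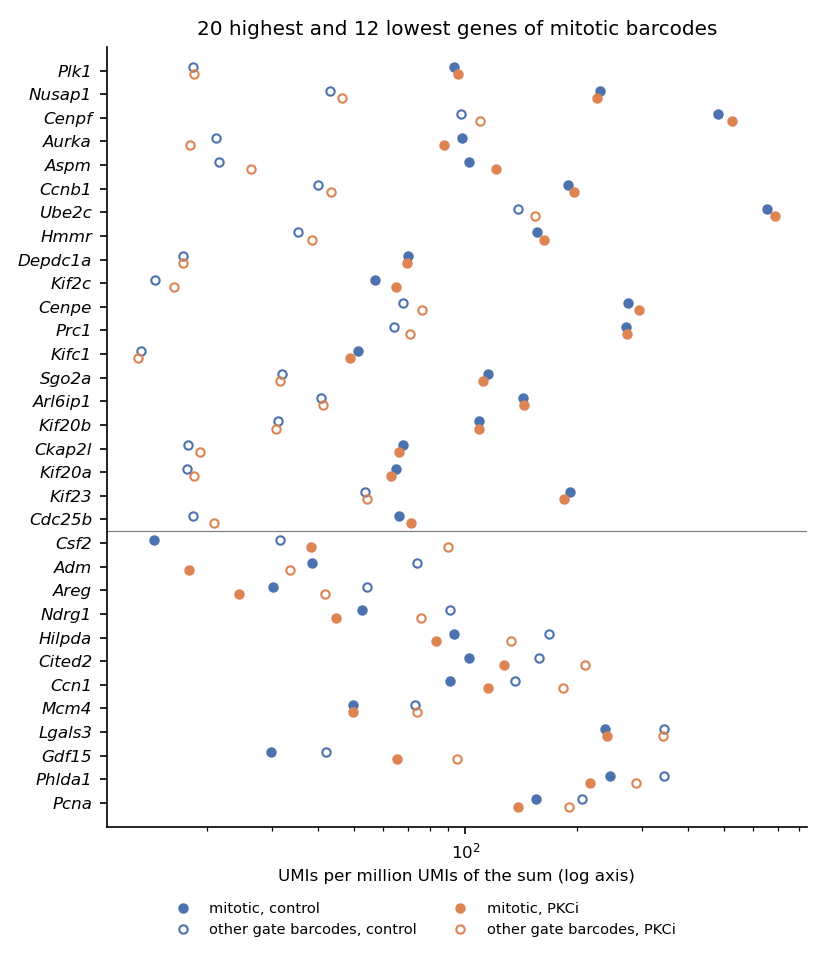
Level of the 20 genes highest and the 12 lowest in members against other gate barcodes (y axis), in CPM on a log axis (x axis). Filled circles are members and open circles the other gate barcodes, blue for control and orange for PKCi. For the upper 20 the filled circles of both libraries lie to the right of the open ones, and for the lower 12 to the left.

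For the lists, every member with at least 50 UMIs was counted, and at that level the median log2 ratio of all genes was 0.06. Of all genes at that level, 2.72% were higher and 2.72% lower. The 11 mitosis lists without the genes of the rule held 151 genes, of which 94 were higher and 0 lower, with a median log2 ratio of 0.89. The lists were chosen with results of these data known.

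Regulators of mitotic entry were higher for 15 of 22 genes (3 of them of the rule), with a median log2 ratio of 1.17. Ccna2, cyclin A2, stood at 171 CPM in members of each library against 65.2 and 67.0 CPM in the other gate barcodes. Ccnb2 stood at 142 and 136 CPM against 64.5 and 59.6 CPM, and Cdk1, their kinase partner, at 257 and 250 CPM against 112 and 113 CPM. Cdc25b and Cdc25c, phosphatases that switch Cdk1 on, were 3.61 and 3.41 times and 3.69 and 3.84 times as high in control and PKCi members. Cdc25a, the family member that also acts at the start of S phase, was at 36.4 and 35.8 CPM against 35.4 and 33.7 CPM and was not called. Wee1 and Pkmyt1, the kinases that hold Cdk1 off, were not called either, with log2 ratios of 0.70 and 0.50 and of 0.23 and 0.18. Foxm1, the factor that drives late cell cycle genes, was 2.05 and 2.24 times as high, while Mybl2, the B-MYB gene, was at log2 ratios of 0.21 and 0.17.

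Every one of the 12 mitotic kinesins was higher in members, with the largest list median (log2 ratio 1.81). Kif2c, which takes microtubules apart at kinetochores, stood at 56.9 and 64.9 CPM against 14.4 and 16.2 CPM. Kif11, which pushes spindle poles apart, stood at 139 and 143 CPM against 39.2 and 42.6 CPM. Kif15, a helper of Kif11, had the lowest ratios of the list, 2.01 and 1.94.

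Spindle assembly genes were higher for 18 of 19 (median log2 ratio 1.63), with Numa1, a spindle pole protein, as the exception at 0.53 and 0.47. Nusap1 (chr2:119618298-119651244, plus strand, GRCm38), which binds and bundles spindle microtubules, had the largest control ratio of the 20 genes ranked highest, 5.37 (95% interval 5.2 to 5.55), and its PKCi ratio was 4.89 (4.74 to 5.05), from 231 and 228 CPM against 43.1 and 46.5 CPM. Aspm, of the spindle poles, stood at 103 and 121 CPM against 21.6 and 26.3 CPM, and Hmmr, a spindle protein and hyaluronan receptor, at 156 and 163 CPM against 35.2 and 38.5 CPM. Fam83d, which brings casein kinase 1 to the spindle, was under the 50 CPM minimum at 35.1 and 29.1 CPM, with ratios of 5.2 and 4.53. These intervals treat UMIs as independent draws and cover counting error only.

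Kinetochore and centromere genes were higher for 23 of 31 (1 of the rule), with a median log2 ratio of 0.86. Cenpe, a kinetochore kinesin, stood at 276 and 296 CPM against 67.9 and 76.3 CPM, and Cenpa, the histone that marks centromeres, at 362 and 402 CPM against 123 and 134 CPM. The outer kinetochore genes Ndc80, Nuf2, Spc24, Spc25 and Knl1 were all called, with control log2 ratios from 0.76 for Spc24 to 1.58 for Ndc80. Parts of the inner, constant complex such as Cenph, Cenpk and Cenpm were not, with control log2 ratios of 0.22, 0.23 and 0.50. Zwint, a kinetochore linker, was at 118 and 119 CPM against 113 and 111 CPM. Spindle checkpoint genes were higher for 5 of 7 (median log2 ratio 0.86), with Bub1b at 92.6 and 91.5 CPM against 32.6 and 32.5 CPM, and Mad1l1 and Trip13 not called. All 4 genes of the chromosomal passenger complex were higher. In this complex Aurkb, its kinase, stood at 111 and 102 CPM against 41.1 and 40.0 CPM, and Birc5 (survivin) at 346 and 372 CPM against 168 and 185 CPM.

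The anaphase-promoting complex was uneven. In all, 7 genes that regulate it or are its targets were called, Cdc20 of the rule among them, while 0 of its 14 listed core subunits were. Ube2c stood at 653 and 690 CPM against 138 and 155 CPM, Pttg1, securin, at 87.2 and 84.6 CPM against 35.8 and 33.8 CPM, and Fzr1, the activator that replaces Cdc20 at mitotic exit, at 88.4 and 92.8 CPM against 33.1 and 37.1 CPM. Espl1, the separase that cuts cohesin, and Fbxo5, an inhibitor of the complex, were also called. Core subunits lay between log2 ratios of 0.00 for Cdc26 and 0.51 for Cdc23, as in Anapc5 at 96.9 and 104 CPM against 82.8 and 92.3 CPM.

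Condensation genes were higher for 7 of 10 (1 of the rule). Among the condensin subunits, Ncapd2, Ncapg and Ncaph of condensin I were called, with log2 ratios of 1.04 to 1.28, and Ncapd3, Ncapg2 and Ncaph2 of condensin II were not, at 0.34 to 0.54. Mki67, the coat of mitotic chromosomes, stood at 354 and 307 CPM against 115 and 106 CPM. Of 10 cohesin genes only Rad21, the subunit that separase cuts, was called, at 129 and 125 CPM against 72.2 and 70.6 CPM. Cytokinesis genes were higher for 9 of 12, such as Prc1, which bundles the central spindle, at 271 and 273 CPM against 64.2 and 71.0 CPM, and Anln (anillin) at 236 and 226 CPM against 90.1 and 88.6 CPM. The general genes Rhoa, Rhob and Chmp4b of that list lay at log2 ratios from -0.18 to -0.06. Of 13 nuclear envelope genes 3 were called, Lmnb1, Lmnb2 and Sun2, while Lmna, the A-type lamin, was at log2 ratios of 0.30 and 0.21.

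Among genes outside the lists, Depdc1a had the largest ratios, 4.05 and 4.03, and the others with log2 ratios of 1.20 or more in both libraries were G2e3, Pimreg, Cip2a, Trim59, Reep4, Cdca3, Iqgap3 and Knstrn. Reep4 clears endoplasmic reticulum from mitotic chromosomes, and Knstrn is a kinetochore and spindle protein. Hmgb2, a chromatin protein of dividing cells, stood at 1354 and 1297 CPM against 680 and 699 CPM. These genes were chosen after their values were seen. Among cell cycle inhibitors, Cdkn2d and Cdkn3 were called, at 95.4 and 90.7 CPM against 33.3 and 31.8 CPM and at 26.8 and 27.5 CPM against 10.7 and 9.51 CPM, while Cdkn1a, the p53 target p21, was at 47.1 and 48.0 CPM against 50.3 and 59.8 CPM.

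The 7 genes called lower at the 50 CPM minimum were Csf2, Adm, Areg, Ndrg1, Hilpda, Cited2 and Ccn1. Csf2, the growth factor GM-CSF (chr11:54247271-54249667, minus strand, GRCm38), stood at 14.4 CPM in control members against 31.5 CPM, a ratio of 0.456 (0.415 to 0.499), and at 38.1 CPM in PKCi members against 89.6 CPM, a ratio of 0.425 (0.401 to 0.450). It reached 50 CPM only in the other PKCi gate barcodes, and Adm and Areg only in the other control gate barcodes, so each was measured through the sum where it was high. Csf2 UMIs were found in 22.9% of control and 42.0% of PKCi members and in 25.2% and 50.1% of the other gate barcodes, which had fewer UMIs per barcode. In control members the 10% of barcodes with most of it held 79.6% of its UMIs. Areg, a ligand of the EGF receptor, stood at 30.2 and 24.3 CPM against 54.3 and 41.6 CPM. Adm (adrenomedullin), Ndrg1 and Hilpda are known to respond to low oxygen, and stood at 38.3 and 17.8 CPM, 52.5 and 44.7 CPM, and 93.1 and 83.5 CPM in members against 74.1 and 33.5, 90.7 and 76.1, and 169 and 133 CPM. Of 24 hypoxia and glycolysis genes only Adm and Ndrg1 were lower (median log2 ratio -0.18). Of 19 cytokines and growth factors 5 were lower and 0 higher (median -0.43), Csf2, Csf3, Ccl7, Ccl20 and Areg, of which Csf3 and Ccl20 were under 11 CPM throughout. Over all 15571 genes with 50 UMIs, 2.72% were lower and 2.72% higher.

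DNA replication genes did not follow the mitosis lists. Of 46, 0 were higher and 2 lower, where 2.72% of 15571 genes with 50 UMIs were called in each direction. The median log2 ratio was -0.15 and ranged from -0.44 to 0.01 over the alternatives. Pcna, the sliding clamp, stood at 155 and 139 CPM against 206 and 191 CPM and was not called, and Mcm4, of the replicative helicase, at 49.8 and 49.6 CPM against 73.3 and 74.2 CPM, also not called. The 2 called were Cdc6, which loads that helicase, at 10.6 and 9.63 CPM against 19.8 and 18.5 CPM, and Ung, which removes uracil from DNA. Ung had the smallest ratios of the list, 0.137 (0.111 to 0.166) and 0.109 (0.0847 to 0.139), from 2.84 and 2.06 CPM against 20.8 and 18.9 CPM. Of 16 G1 cyclins and E2F factors, 0 were higher and 2 lower, with a median log2 ratio of -0.01. The list as a whole thus stood near the other gate barcodes. Among genes of the step from G1 to S, Ccne2, cyclin E2, stood at 18.3 and 16.8 CPM against 27.5 and 28.2 CPM. E2f1 stood at 28.5 and 27.1 CPM against 49.9 and 48.0 CPM. Histone genes that are coupled to replication were higher for 6 of 18, with a median log2 ratio of 0.68, which was 0.04 with Top2a left out of the rule. Hist1h1b, a linker histone, stood at 287 and 276 CPM against 160 and 168 CPM. The kit primes on poly(A), which most mRNAs of this histone class lack, so their counts cover only the part that is captured. H2afx, a variant histone, stood at 238 and 229 CPM against 112 and 105 CPM.

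The levels along the whole gate show where the members lie. Gate barcodes of both libraries together were cut into 10 bins of equal size by the 6-gene sum, and the members are bin 10 and the upper part of bin 9. The summed replication list (CPM of its 46 genes) went from 1288 CPM in bin 1 of the control library to 4325 CPM in bin 6, and was 2755 CPM in bin 10. In the PKCi library it was 1361 CPM in bin 1, 4103 CPM in bin 5 and 2558 CPM in bin 10. Summed mitotic kinesins had no such middle peak and went from 25.9 and 32.4 CPM to 1050 and 1052 CPM. Histone genes were highest in bin 9, at 1664 and 1691 CPM, and were 1193 and 1251 CPM in bin 10. Csf2 had its lowest level in bin 10 of both libraries, at 12.8 CPM against 44.0 CPM in bin 1 in control and at 35.7 CPM against 139 CPM in PKCi. Mt1, a metallothionein, also had its lowest level there in both, at 655 CPM against 1774 CPM in control and 348 CPM against 622 CPM in PKCi. Median depth went from 29534 and 27411 UMIs in bin 1 to 53355 and 49255 UMIs in bin 10, and its part in these levels was not tested.

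**Figure D3:**
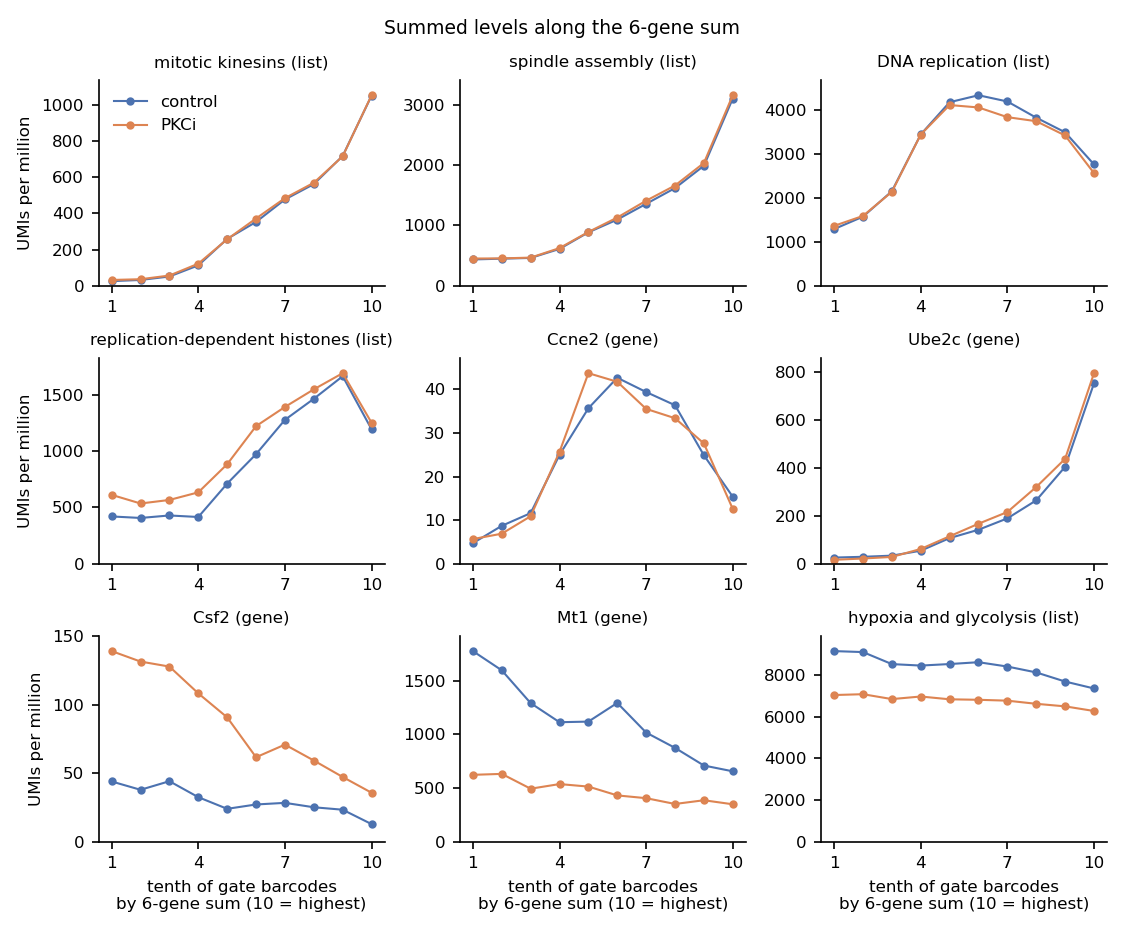
Level in CPM (y axes, from 0) of 5 gene lists and 4 genes in 10 equal bins of the gate barcodes ordered by the 6-gene sum (x axes, 10 is highest), for control (blue) and PKCi (orange). Kinesins, spindle genes and Ube2c are highest in bin 10, replication genes and Ccne2 peak in the middle, and Csf2 and Mt1 are lowest in bin 10.

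Members were not uniform. They were split into 4 equal groups over both libraries by how much of the 6-gene sum was not Top2a, from group 1 (Top2a takes most, at most 36.5% other genes) to group 4 (over 62.4% other genes). Group 1 carried much replication RNA. The replication list stood at 4226 CPM in control and 4497 CPM in PKCi in group 1, near its highest level along the gate, and at 2268 and 2107 CPM in group 4. Hist1h1b stood at 590 and 652 CPM in group 1 and at 38.1 and 90.9 CPM in group 4. Pcna went from 277 and 260 CPM to 98.7 and 95.5 CPM, Ccne2 from 40.6 and 46.0 CPM to 9.40 and 7.33 CPM, and Cdkn1a from 81.7 and 96.9 CPM to 26.2 and 26.3 CPM. So for part of the members the label holds only in the sense of the rule, since genes of S phase were as high there as in barcodes outside the set.

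Other genes ran the opposite way. Ube2c, which is not in the rule, stood at 285 and 279 CPM in group 1 and at 928 and 921 CPM in group 4. Cenpa went from 178 and 190 CPM to 526 and 579 CPM, Kif20a, a kinesin of the central spindle, from 32.9 and 27.2 CPM to 101 and 94.1 CPM, Reep4 from 36.7 and 34.4 CPM to 113 and 120 CPM, and Pttg1 from 50.8 and 44.3 CPM to 130 and 119 CPM. A further set hardly differed. Aurkb stood at 116 and 114 CPM in group 1 and 106 and 92.2 CPM in group 4, Kif11 at 141 and 146 against 130 and 135 CPM, and Bub1 at 75.5 and 74.0 against 78.6 and 67.2 CPM. The immediate early gene Fos was lower in group 4, at 739 and 1113 CPM in group 1 against 357 and 541 CPM, and Csf2 was 51.2 CPM in group 1 and 22.2 CPM in group 4 of the PKCi library and 13.5 and 12.3 CPM in control. Median depth was 44324 and 43039 UMIs in group 1 and 54162 and 46974 UMIs in group 4, and its part in these values was not tested.

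**Figure D4:**
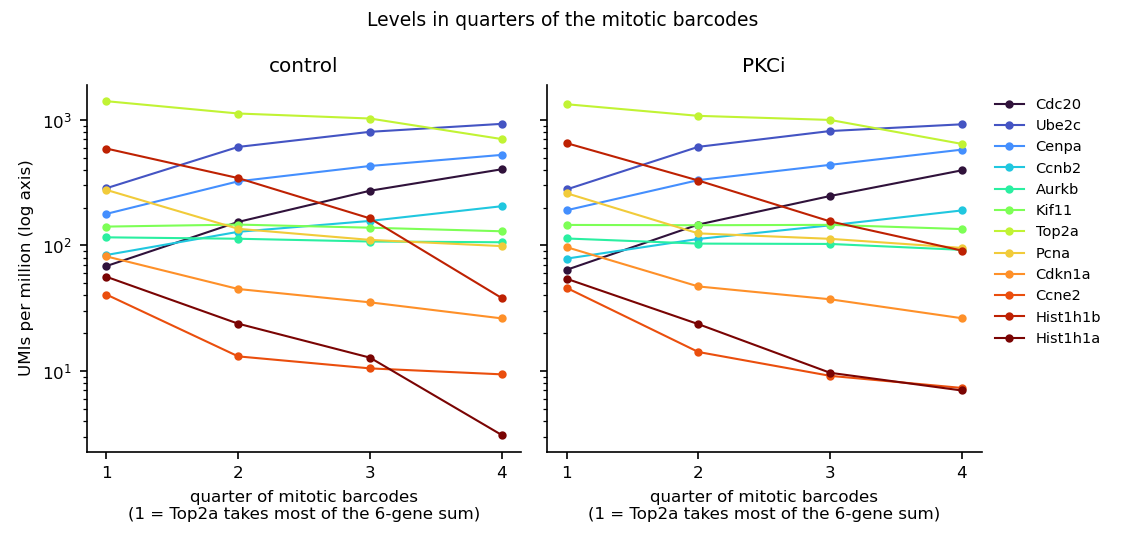
Level in CPM on a log axis (y) of 12 genes in 4 equal groups of members (x axis), from group 1, where Top2a takes most of the 6-gene sum, to group 4, with 1 panel per library. Ube2c, Cenpa and Ccnb2 are highest in group 4, Hist1h1a, Hist1h1b, Ccne2, Cdkn1a and Pcna in group 1, and Aurkb and Kif11 stay nearly level. Cdc20 and Top2a are part of the sum that made the groups, so the rise of Cdc20 and the fall of Top2a follow from the split.

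Members made up 15.6% (exact Clopper-Pearson 95% interval 14.5 to 16.7) of gate barcodes in the control and 14.4% (13.4 to 15.5) in the PKCi library. The ratio of these shares, PKCi over control, was 0.926, and its counting interval of 0.838 to 1.02 included 1. It did not include 1 with Cenpf left out of the rule, where the log2 ratio was -0.22 (-0.37 to -0.08), or without barcodes carrying markers of other cell types, where it was -0.18 (-0.33 to -0.02). After thinning to 10000 UMIs the shares were 15.8% and 14.3%, a ratio of 0.907 (0.820 to 1.00). The 4 groups by the Top2a part of the sum, a value the rule used, are described with intervals for counting error over barcodes of 1 library each, which are not replicates of a treatment. Group 1 held 28.5% (25.1 to 32.1) of control and 21.4% (18.3 to 24.7) of PKCi members, and group 4 held 22.1% (19.0 to 25.5) and 28.0% (24.6 to 31.7). Top2a itself was 0.919 (0.906 to 0.933) times as high in PKCi as in control members. With Top2a left out of the rule, the ratio of the shares had a log2 of 0.035 (-0.109 to 0.179), against -0.11 (-0.255 to 0.033) with it. The sign thus changed, and both intervals included 0. All intervals of the shares and their ratios treat barcodes of 1 library per treatment as independent. Whether such an interval includes 0, or 1 for a ratio, therefore cannot set a direction between treatments. The cut was set over both libraries together and fixes their pooled share at 15%. The shares of the libraries are thus tied to each other, which their intervals do not take into account.

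The last comparison asked whether members of the PKCi library differed from control members. Of 3618 genes measured in members, 10 were at least 1.5 times higher (0.276%) and 14 lower (0.387%) with an interval that excluded 1. A gene needed 50 CPM in only 1 of the 2 libraries, so some were measured only through the library where they were high. Among the higher genes these were Gdf15, Sesn2, Tfrc, Kitl, Gpnmb, Herpud1 and Gadd45b, and among the lower genes they included Gclc and Ly6a. In the other gate barcodes 19 of 3384 were higher (0.561%) and 15 lower (0.443%). Of these genes, 9 of the 10 and 9 of the 14 were also called there, 90% and 64.3% of the members' calls and 47.4% and 60% of those in the other gate barcodes. The medians over all genes were log2 ratios of -0.02 in both sets. Without barcodes carrying markers of other cell types, 11 genes were higher and 13 lower in members. The summed neutrophil markers were 34.0 CPM in control and 6.67 CPM in PKCi members. Fibroblast and pericyte markers summed to 141 and 104 CPM, of which Col3a1 gave 113 and 85.1 CPM. Their part in differences between the libraries was not tested beyond that count.

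No gene of the mitosis lists was called between the libraries in members, 0 higher and 0 lower of 151, where 2.32% and 2.45% of 12434 genes with 50 UMIs were. At the 50 CPM minimum, 0.276% and 0.387% of 3618 genes were called. Members of both libraries were chosen by a shared cut on a sum of mitosis genes. The genes of that sum stood at 2157 CPM in control and 2118 CPM in PKCi members. Genes that vary with it were thus partly matched by the rule, so the lack of calls cannot show whether mitosis genes differed between the libraries. In the other gate barcodes 0 of 151 were called, where 3.33% and 4.13% of 15170 genes were. The median log2 ratio of the 151 was -0.01 in members and 0.01 in the other gate barcodes. With the genes of the rule put back, 61 genes of the mitosis lists reached the 50 CPM minimum in members and in the other gate barcodes, and in members they lay between log2 ratios of -0.26 and 0.32. Ccnb1 of the rule had a ratio of 1.04 (1.00 to 1.07), Cdk1 of 0.973 (0.945 to 1.00), Nusap1 of 0.983 (0.953 to 1.01) and Aspm of 1.18 (1.13 to 1.24). The replication list had 0 calls among 46 genes. With 1 library per treatment, such values cannot separate treatment from library.

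Of the 10 genes higher in PKCi members, Gdf15 (chr8:70629393-70632456, minus strand, GRCm38), a stress-induced cytokine of the TGF-beta family, had the largest ratio. It stood at 29.8 CPM in control and 65.1 CPM in PKCi members, a ratio of 2.19 (2.03 to 2.35), and at 41.8 and 94.7 CPM in the other gate barcodes. Hist1h2bc, an H2B gene, stood at 98.6 and 196 CPM (ratio 1.99, 1.91 to 2.07). Sesn2, a stress-induced regulator of mTORC1, stood at 27.7 and 51.9 CPM, and Tfrc, the transferrin receptor, at 47.7 and 87.3 CPM. The other 6 were Kitl, Gpnmb, Nupr1, Herpud1, Gadd45b and Tcim, with ratios from 1.51 to 1.79. Of 17 integrated stress response genes, 5 were higher (Gdf15, Sesn2, Herpud1, Trib3, Chac1) and 1 lower (Slc7a11), with a median log2 ratio of 0.23 in members and 0.34 in the other gate barcodes. The other gate barcodes also had 5 higher and 1 lower. Over all genes with 50 UMIs, 2.32% were higher and 2.45% lower in members. Csf2 was 2.65 times as high (2.39 to 2.95) in PKCi members and 2.84 times (2.75 to 2.94) in the other gate barcodes, so PKCi members at 38.1 CPM were near the level of the other control gate barcodes at 31.5 CPM.

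Of the 14 lower genes, Hnrnpa0, an RNA-binding protein, stood at 373 CPM in control and 183 CPM in PKCi members, a ratio of 0.492 (0.477 to 0.507). Mbd2, a reader of methylated DNA, stood at 119 and 61.3 CPM, Csnk2a2, a casein kinase 2 subunit, at 115 and 61.6 CPM, and Purb, a nucleic acid binding protein, at 196 and 107 CPM. These 4 had nearly the same ratios in the other gate barcodes, from 0.496 to 0.530. Mt1 and Mt2, which bind zinc and copper, were also lower, Mt1 at 666 CPM in control and 357 CPM in PKCi members and Mt2 at 392 and 204 CPM. Gclm and Gclc, the 2 subunits of the first enzyme of glutathione synthesis, had ratios of 0.589 and 0.650. Fdps and Idi1 of the mevalonate pathway had ratios of 0.651 and 0.659, and Sod2, Cp, Ly6a and Pcdh7 from 0.643 to 0.663. Among 13 targets of NRF2, 4 were lower (Gclm, Gclc, Hmox1, Slc7a11) with a median log2 ratio of -0.28, and Hmox1, haem oxygenase, was at 22.6 and 6.37 CPM. In the other gate barcodes 3 of the 13 were lower, with a median of -0.33, so the difference was not particular to members. Over all genes with 50 UMIs, 2.45% were lower in members and 4.13% in the other gate barcodes.

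**Figure D5:**
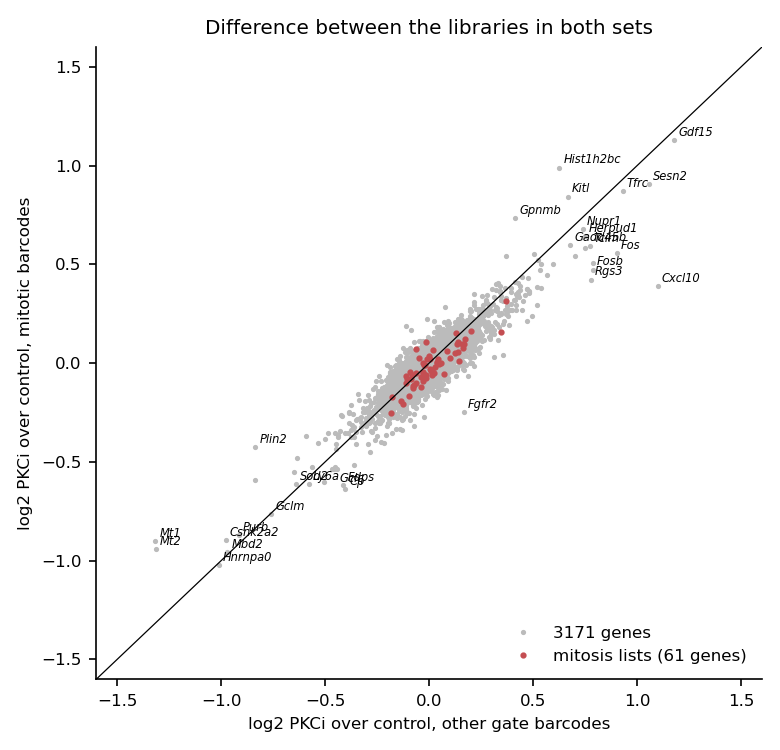
Log2 of PKCi over control for 3171 genes in the other gate barcodes (x axis) and in members (y axis), each point 1 gene, with the 61 genes of the mitosis lists in red and the line of equal values in black. Red points lie between -0.26 and 0.32 on the y axis, Gdf15 and Sesn2 lie high and Hnrnpa0 and Mbd2 low on both axes, and Mt1, Mt2 and Cxcl10 lie off the line.

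The difference between the libraries was of unequal size in members and in the other gate barcodes for some genes, in all but 1 of them by less than 1.5 times. Among 3171 genes measured in both, the intervals of the 2 ratios lay apart for 156 with a larger and 350 with a smaller ratio in members, and for 1 gene, Cxcl10, the ratios themselves were over 1.5 times apart. Mt1 was 0.535 (0.524 to 0.547) times as high in PKCi as in control members and 0.401 (0.398 to 0.405) times in the other gate barcodes. Mt2 had ratios of 0.521 and 0.402, and Plin2, which coats lipid droplets, 0.744 and 0.560. Levels of these 3 in control members were below those of the other control gate barcodes, as in Mt1 at 666 against 1181 CPM. Hist1h2bc and Gpnmb had larger ratios in members, 1.99 against 1.54 and 1.66 against 1.33. In the opposite direction, Cxcl10, a chemokine that draws T cells, had 1.31 (1.24 to 1.39) in members and 2.14 (2.08 to 2.21) in the other gate barcodes, and Fos 1.47 (1.45 to 1.5) and 1.87 (1.85 to 1.89). Fgfr2, Rgs3 and Fosb had 0.842 against 1.12, 1.34 against 1.71, and 1.39 against 1.72. The 10% of control members with most Cxcl10 held 71.6% of its UMIs, with 249 in a single barcode, so its level rests on few barcodes. Its log2 ratio in members was 0.39 and ranged from -0.01 to 0.55 over the alternatives.

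Lists tied to the title of the series are small. Of all 15571 genes with 50 UMIs, 2.72% were higher and 2.72% lower in members than in the other gate barcodes. Between the libraries in members, 2.32% of 12434 were higher and 2.45% lower. Lists of this size would hold few calls at those shares, so their counts are no result about these genes. None of 13 measured kinases of the PKC, PKN and PKD families was called between the libraries (median log2 ratio -0.06). Against the other gate barcodes 1 was higher, Pkn3 at 7.86 and 8.91 CPM against 5.15 and 5.63 CPM, and 1 lower, Prkch, under 1 CPM throughout. Xiap, an inhibitor of caspases, stood at 42.7 and 37.6 CPM in members and at 36.3 and 33.5 CPM in the other gate barcodes. Of 10 inhibitors of apoptosis and their antagonists only Birc5, which also belongs to the chromosomal passenger complex, was called higher in members, and 0 were called between the libraries. The 19 genes of MHC class I presentation had 0 calls against the other gate barcodes (median log2 ratio 0.10), and between the libraries 1, H2-T23, was lower in PKCi members, at 16.7 and 9.90 CPM.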

How the data were processed

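Each library is 1 sample (control, PKCi). The authors deposited raw UMI counts per gene and barcode made with Cell Ranger 7.0.0 per the file headers, and the submitters' processing notes name GRCm38, Cell Ranger and Seurat with no role given for Seurat. No further normalization of the deposited counts was applied. Members were chosen as described, with ties in the thinned ranking broken by a seeded random order. Counts were summed per library and set and divided by the total (CPM), ratios had exact 95% intervals from the binomial split of 2 counts, and log2 ratios had 0.5 count added. Shares had exact Clopper-Pearson intervals. All intervals cover counting error only. The depth was 222641855 and 229219749 UMIs, of which members held 35880785 and 33435363. The counting step was tested on simulated data. Doublets were called with Scrublet in scanpy 1.11.5 (expected rate 6%), which marked 1.74% and 1.83% of scored barcodes, and were left out only in an alternative. Python 3.11.15, numpy 2.4.6, scipy 1.17.1 and pandas 2.3.3 were used.

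Left out of the ranking were genes of mitochondria, ribosomes, haemoglobin, antigen receptors and the Y chromosome, Xist, predicted genes with no name, and genes under 10% of their level in barcodes with at least 3 Ptprc UMIs. Named were the 20 highest and 12 lowest against the other gate barcodes, up to 12 higher and 12 lower between the libraries, 5 and 5 by difference of ratios, and examples from 30 lists. Pcdh7 and Idi1 were named besides to complete the count of 14. The members, lists and rules were chosen with earlier results of these data known. For the symbols Aldoa and Ddit3, found under 2 identifiers, the one with more UMIs was used, and 3 listed symbols were not matched. Alternatives were the size of the set, ranking within libraries, thinning, doublets, UMI and mitochondrial limits, barcodes with markers of other cells, Top2a or Cenpf left out of the rule, mean of barcode CPM and the minimum level.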

Additional observations from a re-analysis of the deposited data

Results flagged for a closer look

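Some of the named genes were higher in members than in the other gate barcodes in one library and lower in the other. Only named genes were searched, and the share over all genes was not counted. Cxcl10, Fgfr2, Rgs3 and Fos were among the 5 named because their ratio between the libraries was smaller in members. That is the same contrast, so the unequal ratios below follow from how the genes were picked and are no separate result. The differences between the libraries were not tested, since there is 1 library per treatment. Cxcl10 in members was 1.42 (1.36 to 1.5) times its level in the other gate barcodes of the control library and 0.870 (0.834 to 0.907) times in the PKCi library. Fgfr2, a receptor of fibroblast growth factors, had ratios of 1.21 (1.15 to 1.27) and 0.910 (0.862 to 0.960). Rgs3, which shortens G protein signals, had ratios of 1.22 (1.16 to 1.28) and 0.956 (0.917 to 0.996). Fos, a subunit of the AP-1 factor, had ratios of 1.23 (1.21 to 1.24) and 0.966 (0.954 to 0.979).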

How the results depend on the processing

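With Top2a left out of the rule, the log2 ratio of the shares of members was 0.035 in place of -0.11, and 13 genes in place of 7 were lower in members. With the mean of barcode CPM, 9 genes in place of 14 were lower in PKCi members. With at least 10 UMIs and no CPM minimum, 721 genes were higher and 1024 lower in members, and 474 were higher and 519 lower in PKCi members, as more genes with low counts were tested. The other alternatives left these counts within 1.5 times and the share below 0 on the log2 scale, from -0.22 with Cenpf left out. Ranking within each library fixes the share, and the mean of barcode CPM and the minimum level do not touch it, so these gave no value of it. The median log2 ratio of the mitosis lists ranged from 0.79 to 1.09 against the other gate barcodes, and from -0.03 to 0.00 between the libraries. Of 152 other values under 12 alternatives, 1524 of 1824 stayed within the interval of the main value and 300 did not. Intervals were counting error for genes and order statistics for list medians. The smallest lists had no interval and were judged by a fixed distance. Among all 1824, a sign changed in 56, over 21 values of at most 0.39 in size, and in 0 of the 86 values past 1.5-fold. Genes with few UMIs, such as Ung and Csf3, and the lack of a second library per treatment limit what depth can show. No paired analysis was possible because the 2 groups have 1 library each and so share fewer than 2 replicate numbers.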
